A study of Rattus norvegicus with 10 samples.

Results

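The 6 genes Igfbp1 to Igfbp6 encode the insulin-like growth factor (IGF) binding proteins, and their transcripts were followed in fetal rat kidney on day 22 of gestation, close to birth. A probe set was taken as a member when the platform annotation gave one of these symbols as its only gene name, which selected 10 of the 15923 probe sets on the array. Igfbp5 had 3 of them, Igfbp3 and Igfbp6 had 2 each, and Igfbp1, Igfbp2 and Igfbp4 had 1 each. The hyperinsulinemic group held 5 kidney samples (replicates 6 to 10) from growth-restricted fetuses of Wistar mothers weighing 200 to 280 g, which received a 2 mm piece of a slow-release insulin implant under the skin before mating and again after it, on a normal diet. The normal group held 5 kidney samples (replicates 1 to 5) from fetuses of mothers on a regular diet, with no implant named. Each sample was hybridised to 1 one-colour Affymetrix array, and values are MAS5 signals, the linear intensities that this algorithm summarises per probe set. The model is limited in that insulin was given to the mother, so the labels do not say how much insulin the fetus met. The labels used here name no litter, sex, strain of the normal mothers or batch, so p-values measure the spread between these samples, which may share mothers. The kidney markers Aqp2, Cdh16, Slc12a1, Umod and Slc22a6 were all above the filter, with summed signals of 4228 to 4903 in hyperinsulinemic kidneys and 3682 to 4455 in normal kidneys.

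IGF binding proteins hold IGF1 and IGF2 in plasma and tissue fluid with an affinity at least as high as that of the IGF1 receptor, so they carry the growth factors, lengthen their life and limit their access to the receptor. Proteases such as pregnancy-associated plasma protein A2 and plasmin cut them and free the ligand. Insulin is known to repress Igfbp1 in liver through the FOXO transcription factors. In rodents IGF2 is the main IGF of fetal life.

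The start regions of 3 members are shown, that of Igfbp1 because it carries the element through which insulin acts on this gene, and those of Igfbp3 and Igfbp6 because these genes gave the largest differences described further on. Each runs 5′ to 3′ on the gene's strand, from 250 bases before to 50 bases after the RefSeq start, in build GRCr8. Capitals in Igfbp1 (chr14:86261027-86261326, plus strand) mark CAAAACAA and, as its reverse complement TTATTTTG, CAAAATAA, the inverted pair of the textbook insulin response element. Capitals in Igfbp3 (chr14:86277895-86278194, minus strand) mark TATATA, and in Igfbp6 (chr7:135154669-135154968, plus strand) the FOXO core GTAAACA.
Igfbp1: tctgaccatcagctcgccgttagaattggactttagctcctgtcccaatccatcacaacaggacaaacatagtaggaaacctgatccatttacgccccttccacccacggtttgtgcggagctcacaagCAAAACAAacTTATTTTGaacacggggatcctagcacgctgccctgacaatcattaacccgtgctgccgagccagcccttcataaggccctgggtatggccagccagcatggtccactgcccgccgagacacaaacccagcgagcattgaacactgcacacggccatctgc
Igfbp3: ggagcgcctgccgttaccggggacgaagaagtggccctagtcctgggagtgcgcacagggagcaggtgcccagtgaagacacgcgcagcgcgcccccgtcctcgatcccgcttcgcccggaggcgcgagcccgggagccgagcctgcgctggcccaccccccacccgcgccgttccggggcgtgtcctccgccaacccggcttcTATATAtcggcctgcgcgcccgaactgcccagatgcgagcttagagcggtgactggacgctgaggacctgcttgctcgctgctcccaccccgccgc
Igfbp6: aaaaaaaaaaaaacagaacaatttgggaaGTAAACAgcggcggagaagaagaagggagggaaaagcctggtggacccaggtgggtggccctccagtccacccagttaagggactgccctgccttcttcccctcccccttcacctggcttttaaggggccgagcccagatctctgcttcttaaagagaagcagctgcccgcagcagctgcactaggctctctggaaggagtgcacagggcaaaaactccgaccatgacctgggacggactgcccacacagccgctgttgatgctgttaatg
On either strand, CAAAACAA was found in 2.23% of the 33469 rat start regions of the same length, CAAAATAA in 2.02%, GTAAACA in 3.78% and TATATA in 6.15%. Igfbp1 was the 1 member with CAAAACAA or CAAAATAA in this window, and the pair lay 121 and 111 bases before its start without overlapping. The search also covered ACGTG, the core of hypoxia response elements, GGGCGG, the GC box, and TATAAA, present in 19.3%, 33.1% and 14.2% of start regions. Igfbp2 held ACGTG on both strands at one place and GGGCGG once, Igfbp4 held TATAAA, and Igfbp5 held none of the 7 motifs; these matches describe letters in a window and not binding. In the RefSeq table Igfbp1 and Igfbp3 are neighbours on chromosome 14 with 0 annotated genes between them, as are Igfbp2 and Igfbp5 on chromosome 9.

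Igfbp3 and Igfbp6 had lower signals in hyperinsulinemic kidneys at every probe set, while Igfbp1, Igfbp2, Igfbp4 and Igfbp5 differed by less than the spread between arrays. None of these differences passed adjustment over all probe sets. For the test a signal at or above the 40th percentile of its array, which was 79.2 to 87.6, was required on 5 or more of the 10 arrays. This kept 7 of the 10 members, covering all 6 genes, among 9601 probe sets in all, and each of the 7 reached that level in at least 4 hyperinsulinemic and 5 normal arrays. With limma and Benjamini-Hochberg adjustment at 0.05, 0 of the 7 were called, where 1 of 9601, or 0.0104%, was called overall. At an unadjusted p under 0.05, 3 of the 7 were lower and 0 higher, both Igfbp3 probe sets and 1 of Igfbp6, against 2.93% of all tested probe sets lower. The exact permutation test adjusted over all 9601 probe sets also called 0 of the 7. All 7 had a log2 difference below 0, with a median of -0.11, where the median over all tested probe sets was 0.002 and 49.1% were below 0. The 7 include both Igfbp3 probe sets, and the signs of Igfbp1, Igfbp2, Igfbp4 and Igfbp5 turned in some fits that left out 1 array. The groups did not separate fully at any of the 7, against 1.04% of all tested probe sets. Log2 differences are hyperinsulinemic minus normal of log2(signal + 16), with a standard error after ±; signals are given with SD.

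**Figure D1:**
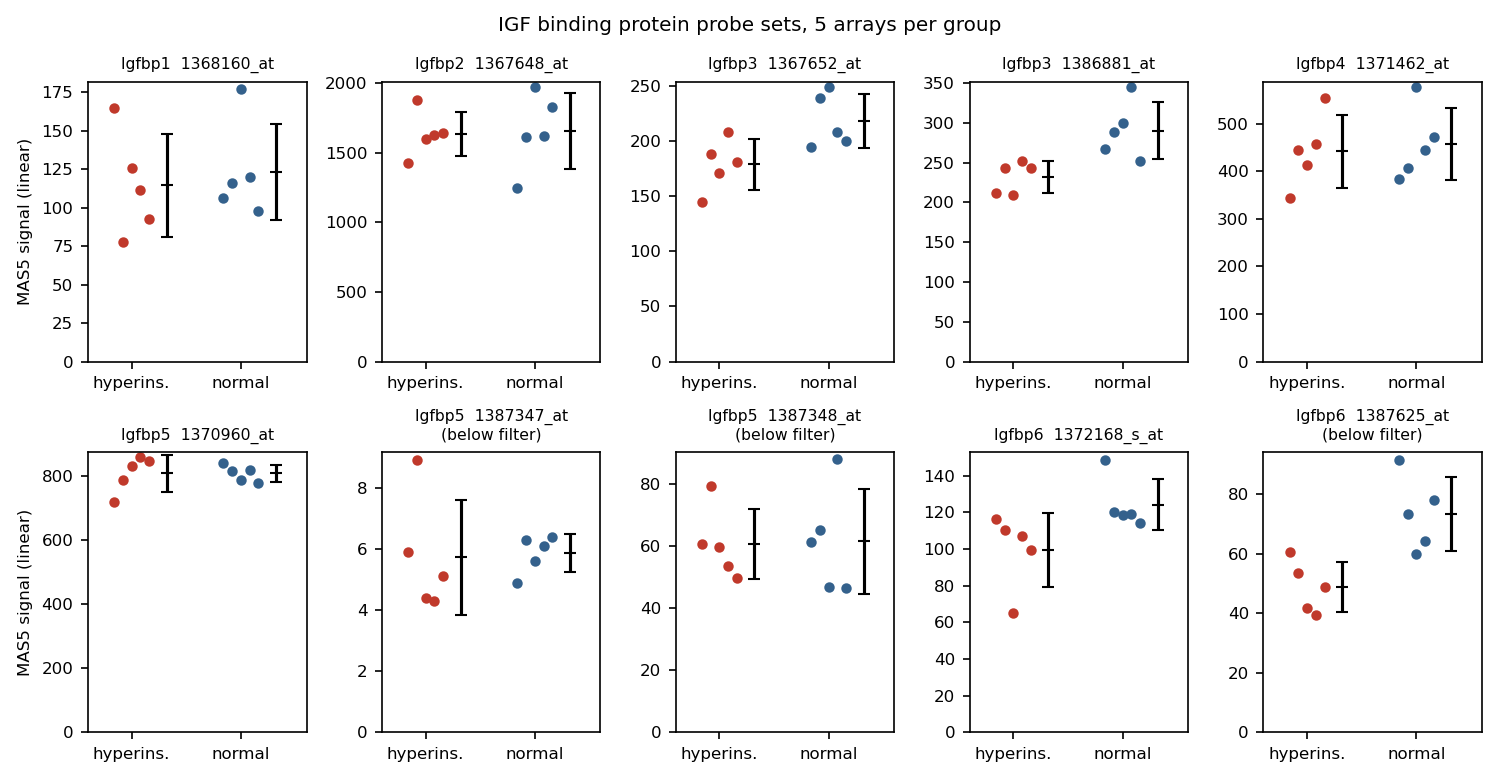
MAS5 signal (linear, from 0) of the 10 IGF binding protein probe sets, with a point per array for the hyperinsulinemic and the normal group in order of replicate number and a bar for mean ± SD (n = 5 each). Both Igfbp3 and both Igfbp6 probe sets sit lower in the hyperinsulinemic group, with 4 of its 5 arrays below every normal array. The other panels overlap broadly.

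Igfbp3 encodes the most abundant IGF carrier of plasma, which forms a ternary complex with IGF and the acid-labile subunit. At its brighter probe set, 1386881_at, the hyperinsulinemic replicates 6 to 10 had signals of 212, 242.7, 208.9, 251.9 and 243.9. The normal replicates 1 to 5 had 267, 288.3, 299.6, 345.2 and 251.6. The groups overlapped only through hyperinsulinemic replicate 9, which lay just above normal replicate 5; the other 4 hyperinsulinemic arrays lay below every normal array. The means were 232 ± 19.9 in hyperinsulinemic kidneys and 290 ± 35.9 in normal kidneys, and the log2 difference was -0.30 ± 0.09 (95% interval -0.49 to -0.12; limma, unadjusted p = 0.00352, adjusted p = 0.676). It ranked at place 49 of 9601 by p.

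The dimmer Igfbp3 probe set, 1367652_at, gave a like difference. Its signals were 145.2, 188.6, 171.6, 208.9 and 180.9 in hyperinsulinemic replicates 6 to 10, and 194.9, 239.6, 249.2, 208.6 and 200 in normal replicates 1 to 5. Again 4 hyperinsulinemic arrays lay below every normal one, and replicate 9 was the exception. The means were 179 ± 23.4 and, in the normal group, 218 ± 24.4, with a log2 difference of -0.27 ± 0.10 (95% interval -0.47 to -0.06; limma, adjusted p = 0.891). Both probe sets were designed on the same RefSeq transcript, so they are repeat measurements of one RNA and not separate evidence. Exact two-sided permutation tests over the arrays gave unadjusted p = 0.0159 for 1386881_at and p = 0.0397 for 1367652_at, where 0.00794 is the smallest value that 5 against 5 arrays allow.

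Igfbp6 encodes the binding protein that prefers IGF2 over IGF1. At 1372168_s_at, whose suffix Affymetrix gives to sets that can share probes among transcripts, the signals were 116.4, 110.3, 65.3, 107.1 and 99.4 in hyperinsulinemic replicates 6 to 10. They were 148.6, 120.2, 118.8, 118.9 and 114.3 in normal replicates 1 to 5. Hyperinsulinemic replicate 8 was the lowest of all arrays and normal replicate 1 the highest, and the groups overlapped only between hyperinsulinemic replicate 6 and normal replicate 5. The log2 difference was -0.29 ± 0.13 (95% interval -0.56 to -0.02; limma, adjusted p = 0.918), and it was -0.17 without hyperinsulinemic replicate 8.

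The second Igfbp6 probe set, 1387625_at, lay below the filter, reaching it on 0 hyperinsulinemic arrays and 1 normal array. Its signals were 60.5, 53.6, 41.8, 39.6 and 48.8 in hyperinsulinemic replicates 6 to 10, and 91.5, 73.5, 60, 64.2 and 78.1 in normal replicates 1 to 5. Here too 4 of the 5 hyperinsulinemic arrays were below every normal array, and the overlap was between replicates 6 and 3. The means were 48.9 ± 8.57 in hyperinsulinemic kidneys and 73.5 ± 12.4 in normal kidneys, a log2 difference of -0.46 (exact two-sided permutation, unadjusted p = 0.0159, among 3 members below the filter that were tested this way). In limma without the filter, where 5 of 15866 probe sets or 0.0315% were called, the adjusted p was 0.767, so it did not pass; at an unadjusted p under 0.05, 2.76% of those probe sets were lower, and this one was among them. No detection calls were used here.

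Igfbp1 encodes the binding protein that insulin represses in liver. Its signals were 164.6, 77.9, 125.5, 111.4 and 92.7 in hyperinsulinemic replicates 6 to 10, and 106.2, 115.8, 176.9, 119.7 and 97.9 in normal replicates 1 to 5. The groups overlapped over nearly their whole range, with a high array in each: hyperinsulinemic replicate 6 and normal replicate 3. The log2 difference was -0.11 ± 0.17 (95% interval -0.47 to 0.26; limma, adjusted p = 0.974), so the interval reaches from a lower to a higher level. Igfbp1 had the widest interval of the tested members, and its sign turned without normal replicate 3 (0.02) or hyperinsulinemic replicate 7 (0.0031). Without hyperinsulinemic replicate 6 the log2 difference was -0.23.

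Igfbp2, a binding protein typical of fetal tissues, was bright on every array. Its signals ran from 1427 to 1874.4 in hyperinsulinemic kidneys (mean 1634 ± 160) and from 1242.4 to 1973.4 in normal kidneys (mean 1655 ± 275). The normal arrays enclosed all hyperinsulinemic ones, and the log2 difference was -0.01 ± 0.10 (95% interval -0.23 to 0.22; limma, adjusted p = 0.998). Igfbp4, whose product mostly inhibits IGF action and is a substrate of pregnancy-associated plasma protein A, had signals from 343.5 to 555 in hyperinsulinemic kidneys and from 383.4 to 577 in normal kidneys. Its log2 difference was -0.05 ± 0.12 (95% interval -0.30 to 0.21; limma, adjusted p = 0.986).

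Igfbp5 encodes a binding protein that attaches to extracellular matrix. At 1370960_at the signals were 719, 790, 833.7, 859.4 and 849 in hyperinsulinemic replicates 6 to 10, and 842.4, 816.5, 787.3, 819.9 and 779.9 in normal replicates 1 to 5. The group means, 810 ± 57.5 and, in the normal group, 809 ± 25.5, nearly coincided, although hyperinsulinemic replicate 6 was the lowest array. The log2 difference was -0.00057 ± 0.06, with the narrowest interval of the tested members (95% interval -0.12 to 0.12; limma, adjusted p = 0.999). The other 2 Igfbp5 probe sets were below the filter. At 1387348_at the signals ran from 49.8 to 79.3 in hyperinsulinemic kidneys and from 46.6 to 88 in normal kidneys, and at 1387347_at from 4.3 to 8.9 and, in the normal group, from 4.9 to 6.4. Their exact permutation p-values were 0.976 and 0.881 (two-sided, unadjusted).

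**Figure D2:**
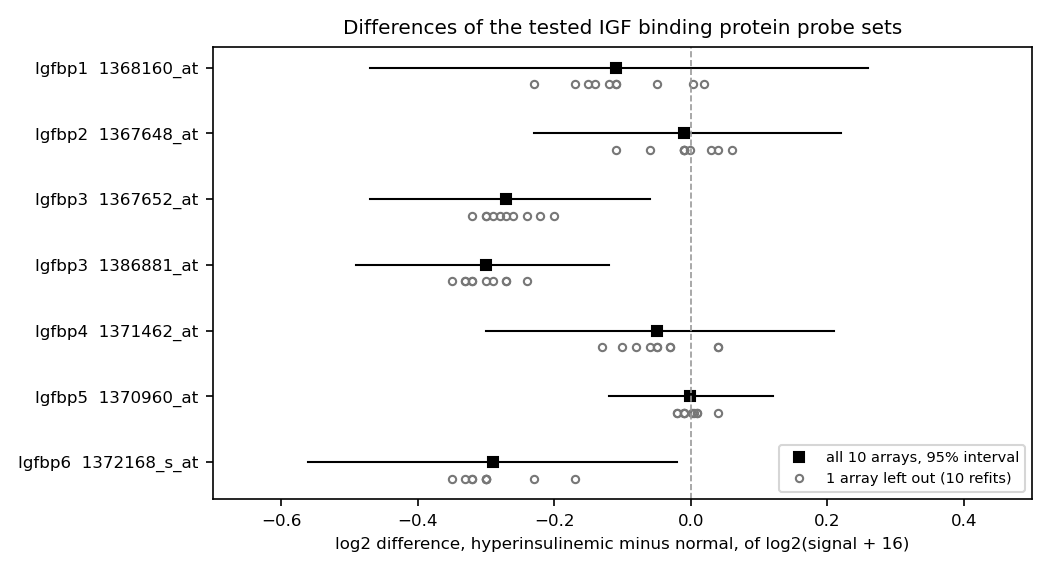
Log2 difference (hyperinsulinemic minus normal, of log2(signal + 16)) of the 7 tested probe sets, with squares for all 10 arrays, lines for the 95% interval from limma and open circles for the 10 refits that each leave out 1 array. The intervals of both Igfbp3 probe sets and of Igfbp6 lie below 0 before adjustment, and those of Igfbp1, Igfbp2, Igfbp4 and Igfbp5 span 0.

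Markers of other cell types and the log2 3′ to 5′ ratio of the Gapdh control probe sets were compared between the groups as well. The Gapdh ratio overlapped, at 0.036 to 0.238 on hyperinsulinemic arrays and 0.027 to 0.191 on normal arrays. In bulk tissue, fewer cells of a type and less RNA per cell cannot be told apart. Of the stroma markers 9 of 10 were on the array and tested, 1 was higher and 8 lower, and 0 were called; their mean of log2(signal + 16), here called the stroma score, ran from 9.844 to 10.001 in hyperinsulinemic kidneys and from 10.039 to 10.258 in normal kidneys, with no overlap. Their summed signal ran from 10384 to 12042 in hyperinsulinemic kidneys and from 11409 to 13517 in normal kidneys, and none was at 0 on any array. With the stroma score as a covariate the log2 differences were -0.13 for Igfbp3 at 1386881_at, -0.35 at 1367652_at and -0.01 for Igfbp6 at 1372168_s_at (limma, adjusted p = 0.919, 0.816 and 0.996). In the same fit Igfbp4 stood at -0.40, Igfbp1 at -0.25, Igfbp2 at -0.18 and Igfbp5 (1370960_at) at -0.04, so the order of the members by size changed, and 0 were called. Since the score does not overlap between the groups, score and group cannot be told apart in that fit. Of 12 liver markers all were on the array and 8 were tested, 7 higher and 1 lower; their summed signal ran from 1757 to 6068 in hyperinsulinemic kidneys and from 1403 to 3075 in normal kidneys, and none was at 0. Alb was brightest in hyperinsulinemic replicate 6 (1741.9) and next in normal replicate 4 (842.2). With the liver score as a covariate Igfbp1 stood at -0.33 and Igfbp3 at -0.31 (1386881_at) and -0.15 (1367652_at). Without those 2 arrays Igfbp1 stood at -0.24, Igfbp3 at -0.21 and -0.22 in the same order, and Igfbp6 at -0.36. The summed erythroid signal ran from 5997 to 8073 in hyperinsulinemic kidneys and from 5076 to 6564 in normal kidneys, the endothelial one from 1034 to 1426 and, in the normal group, from 1213 to 1374. The adrenal markers were below the filter, 5 of 6 being on the array, at summed signals of 106 to 185 in hyperinsulinemic kidneys and 116 to 560 in normal kidneys. Xist, the X-inactivation RNA, ran from 42.4 to 70.5 in hyperinsulinemic kidneys and from 0.8 to 2 in normal kidneys, with no overlap. Xist is transcribed from the inactive X of female cells, and the labels used here give no sex of the fetuses, so maternal treatment and fetal sex cannot be told apart in any value given here.

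**Figure D3:**
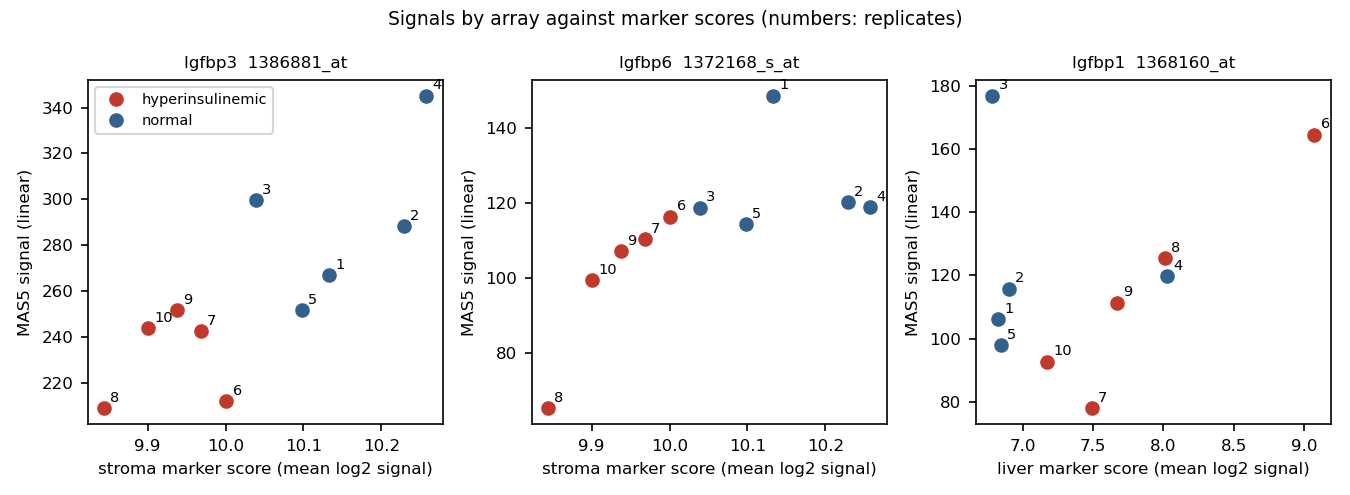
MAS5 signal of Igfbp3 and Igfbp6 against the stroma score, and of Igfbp1 against the liver score, with a point per array numbered by replicate (scores are means of log2(signal + 16)). The stroma score separates the groups at 9.844 to 10.001 in hyperinsulinemic and 10.039 to 10.258 in normal arrays. Hyperinsulinemic replicate 6 had the highest liver score, 9.074, with an Igfbp1 signal of 164.6. Normal replicate 3 had the lowest liver score, 6.781, with the highest Igfbp1 signal, 176.9. Normal replicate 4 had a liver score of 8.026 with an Igfbp1 signal of 119.7.

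The other genes of the system were examined in 7 lists, in which 47 distinct genes were tested and 0 were called, again against 0.0104% of all probe sets. At an unadjusted p under 0.05, 6 of the 47 were lower and 2 higher, together 17% against 5.36% of all tested probe sets. The lists were not drawn at random but chosen with earlier results of these data known. The 17% counts genes at their brightest probe set and the 5.36% all probe sets, so the shares are descriptions. The IGF2 mRNA-binding proteins were not analysed here, since 0 of 3 had a probe set under their name alone. Each gene is given at its brightest probe set.

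Ligands and receptors showed no called difference. Of 9 listed genes 6 were tested, 1 higher and 5 lower, with a median log2 difference of -0.03. Ghr, the growth hormone receptor through which growth hormone raises IGF1 and IGFBP3, averaged 81.7 ± 18.4 in hyperinsulinemic kidneys and 104 ± 12.3 in normal kidneys, a log2 difference of -0.31 ± 0.13 (limma, adjusted p = 0.918). Ins1, an insulin gene of the pancreas, differed by 0.28 ± 0.20, and by 0.48 without hyperinsulinemic replicate 6 and 0.18 without replicate 9. Igf2 differed by -0.03 and Igf1 by -0.11, and Igf1r lay below the filter.

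Among the ternary complex genes, proteases that cut IGF binding proteins and protease inhibitors, 14 of 22 were tested, 5 higher and 9 lower, with a median of -0.02. Plau encodes urokinase, which turns plasminogen into plasmin, and had signals of 1636.1, 1788.3, 1743.3, 1645.5 and 1643.8 in hyperinsulinemic replicates 6 to 10. In normal replicates 1 to 5 they were 1895, 1884.2, 2176.1, 1834.6 and 1998.7. Every hyperinsulinemic array lay below every normal one, which was so in either direction for 1.04% of all tested probe sets. The log2 difference was -0.21 ± 0.06 (95% interval -0.33 to -0.09) and did not pass (limma, adjusted p = 0.661). Pappa2, which encodes the protease of IGFBP3 and IGFBP5, averaged 143 ± 12.6 in hyperinsulinemic kidneys and 123 ± 11 in normal kidneys, a log2 difference of 0.20 ± 0.09 (limma, adjusted p = 0.918). Igfals, the acid-labile subunit, was below the filter.

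Of the 11 other genes with an IGFBP-type domain 5 were tested, 1 higher and 4 lower, with a median of -0.14. Ccn1, a matricellular gene, averaged 121 ± 29.6 in hyperinsulinemic kidneys and 194 ± 87.9 in normal kidneys, a log2 difference of -0.57 ± 0.21 (limma, adjusted p = 0.907). Normal replicate 3 was far above the other normal arrays, and without it the log2 difference was -0.35. The serine protease gene Htra1 differed by -0.15 ± 0.09. Igfbp7, which binds IGFs weakly, differed by 0.03 ± 0.07, and Igfbpl1 was below the filter.

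In the list of proteins that bind IGF binding proteins, 7 of 14 were tested, 4 higher and 3 lower, with a median of 0.01; Cav1, the caveolin gene, differed by -0.17 ± 0.11 (-0.10 without normal replicate 3, -0.28 without normal replicate 5) and the phosphatase gene Ptprb by -0.09 ± 0.08. IGF signalling genes, 7 of 12 tested, were 4 higher and 3 lower with a median of 0.01, and the adaptor gene Grb10 and the kinase gene Akt1 both differed by 0.05.

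The FOXO list held 17 genes, namely FOXO factor genes and genes that FOXO factors or insulin are known to control. Of these 11 were tested, 3 higher and 8 lower, with a median of -0.05. Foxo3 differed by only 0.02 ± 0.06, and Foxo1 was below the filter. Txnip, whose product restrains glucose uptake, had signals of 1309.6, 997.2, 853.4, 1328.9 and 1480.4 in hyperinsulinemic replicates 6 to 10, and 1703.7, 1740.9, 1437.2, 1864.3 and 1631.1 in normal replicates 1 to 5. Only hyperinsulinemic replicate 10 reached into the normal range. The log2 difference was -0.51 ± 0.13 (limma, adjusted p = 0.54). Srebf1, an insulin-induced regulator of fat synthesis, averaged 404 ± 42.4 in hyperinsulinemic kidneys and 318 ± 52.6 in normal kidneys, a log2 difference of 0.34 ± 0.10 (limma, adjusted p = 0.746). Pck1 is a gluconeogenic gene that insulin represses through FOXO, as it does Igfbp1 in liver. It averaged 3262 in hyperinsulinemic kidneys and 3356 in normal kidneys, a log2 difference of -0.04, and Irs2 differed by -0.06. Ccng2 differed by -0.21 ± 0.08 and Pdk4 by -0.19 ± 0.12 (limma, adjusted p = 0.912 and 0.953). Pck1, Irs2, Ccng2 and Pdk4 were added here after their values had been seen.

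**Figure D4:**
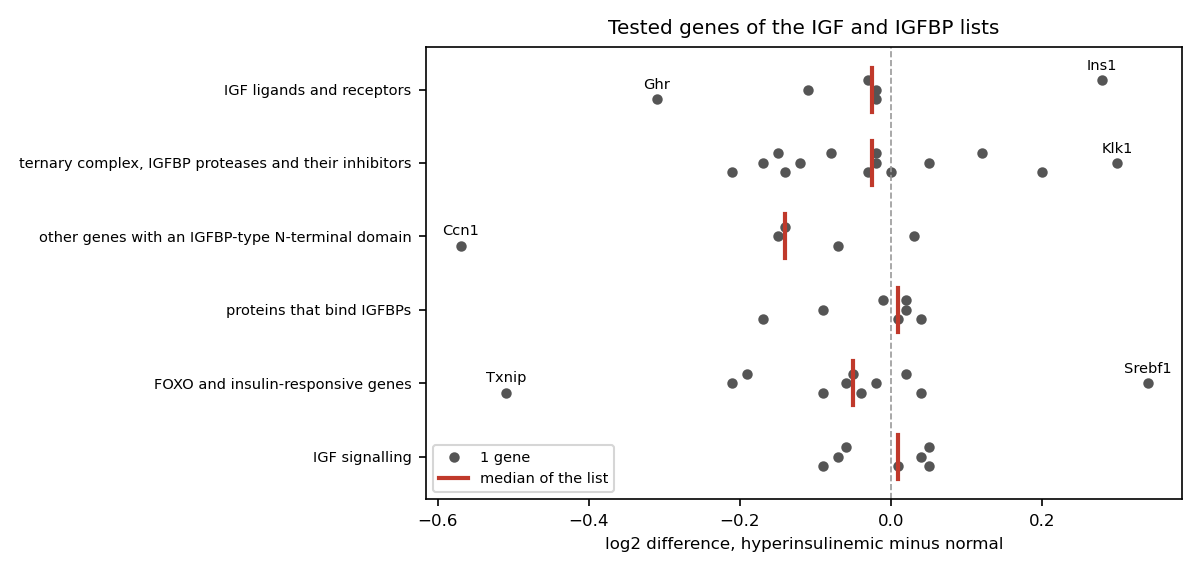
Log2 difference (hyperinsulinemic minus normal) of each tested gene in 6 lists of the IGF and IGF binding protein system, with a point per gene at its brightest probe set and a red line for the median of the list. Most genes lie within 0.2 of 0, and Ccn1 at -0.57 (-0.35 without normal replicate 3) and Txnip at -0.51 lie farthest below it.

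Within groups the members did not vary as 1 unit. After subtraction of each group's mean, the Pearson correlation over the 10 arrays was 0.54 between the 2 Igfbp3 probe sets and 0.58 between those of Igfbp6, while the 3 Igfbp5 probe sets had -0.49 (1370960_at and 1387347_at), -0.02 (1370960_at and 1387348_at) and 0.48 (1387347_at and 1387348_at). Between Igfbp3 and Igfbp6 the sign depended on the probe sets. With Igfbp6 at 1372168_s_at it was 0.17 for Igfbp3 at 1386881_at and -0.12 at 1367652_at, and with Igfbp6 at 1387625_at it was -0.53 and -0.70 in the same order. Igfbp2 and Igfbp4 had 0.72, the highest value between different members. Probe sets 1387347_at, 1387348_at and 1387625_at were below the filter, so the correlations with them rest on low signals. The values share array scaling and 10 arrays, and they are descriptions. Like patterns were sought for each member at its brightest probe set only, among all tested probe sets with 1 gene name. The patterns most like Igfbp3 at 1386881_at were those of Rap2b (r = 0.92), Atp2a2 (0.91) and Slc39a14 (0.91). Most like Igfbp6 at 1372168_s_at were those of Tekt1 (0.95), Meis3 (0.92) and Tepsin (0.91). For Igfbp1 they were Mrpl53 (0.91), Srebf1 at another probe set (0.90) and Vcf1 (0.90). For Igfbp2 they were Pfn2 (0.97), Ppp3ca (0.97) and Kctd10 (0.91), for Igfbp4 Stk19 (0.94), Hid1 (0.92) and Fbn1 (0.91), and for Igfbp5 Myh1 (0.97), Zw10 (0.95) and Gprc5a (0.95). These are the highest of all tested values by choice.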

How the data were processed

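Total RNA of 10 fetal kidney samples was measured on 1 array each. The authors deposited linear intensity values, 1 signal per probe set, made with MAS5 per the submitters' processing notes; its version, settings and the genome build are not given in the sources used here. They were used as deposited. Of 15923 probe sets, 12789 had 1 gene symbol, 312 several and 2822 none; 12754 matched the RefSeq table of GRCr8 by Entrez identifier. The 57 control probe sets were left out of tests.

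Signals were transformed as log2(signal + 16), so folds of dim genes are understated. The comparison used lmFit and eBayes (intensity trend, two-sided) of limma 3.58.1 under R 4.3.3, with Benjamini-Hochberg adjustment over all 9601 tested probe sets. Members below the filter were compared by exact permutation. The fit was tested on simulated data with planted changes. These were larger than the differences of the members, so that test does not cover differences of their size. Figures used Python 3.11.15 and matplotlib 3.10.9. All members and the 2 tested genes with the smallest p per list were named by rule. So were the 3 genes most like each member at its brightest probe set, by group-centred Pearson r. Other named list genes were chosen after their values were seen. Members, lists and tests were chosen with earlier results of these data known. Precision is limited by the number of arrays. Alternatives varied normalization, pseudocount, filter, variance model, weights, covariates, test and arrays.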

Additional observations from a re-analysis of the deposited data

Results flagged for a closer look

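Examined were 44 groups of 5 arrays, from 22 probe sets of the members and of the list genes named by rule. The gap of the highest or lowest array to its neighbour, divided by the range of the group, was set against the Dixon value of 0.71. It was exceeded 3 times, and chance flags about 1 in 20 groups. Normal replicate 3 stood above the other normal arrays for Igfbp1, at a signal of 176.9 against 97.9 to 119.7. The same array stood above the other normal arrays for Ccn1, at 346.4 against 129.9 to 190.9, and without it the log2 difference was -0.35. For Igfbp6 at 1372168_s_at, normal replicate 1 stood apart at 148.6 against 114.3 to 120.2; without it the log2 difference was -0.23.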

How the results depend on the processing

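Under normalization, pseudocount, filter, variance model, array weights, covariates, the exact test and omission of arrays, both Igfbp3 probe sets and Igfbp6 at 1372168_s_at kept a log2 difference below 0, and 0 member probe sets were called. The size was not kept with the stroma score. There 1386881_at stood at -0.13 and 1372168_s_at at -0.01, against -0.30 and -0.29 as reported. The other Igfbp3 probe set, 1367652_at, moved the other way in that fit, to -0.35 against -0.27 as reported. Igfbp4 stood at -0.40 in the same fit. With the liver score 1367652_at stood at -0.15 and 1386881_at at -0.31. The stricter filter left out 1372168_s_at and Igfbp1. Igfbp6 at 1387625_at, also below 0, was run only with other normalizations and pseudocounts, without the filter and with arrays left out. With single arrays left out, Igfbp3 ran from -0.35 to -0.24 (1386881_at) and -0.32 to -0.20 (1367652_at), and Igfbp6 from -0.35 to -0.17 (1372168_s_at) and -0.53 to -0.39 (1387625_at). The exact test of 1387625_at kept an unadjusted p under 0.05 in each of these, but without the filter its difference of -0.46 did not pass in limma (adjusted p = 0.767). The mean of both Igfbp3 probe sets gave -0.28 (limma, adjusted p = 0.758). Array weights gave the smallest adjusted p of Igfbp3 in limma, 0.371.

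The sign of the other members was not settled. With single arrays left out, Igfbp1 ran from -0.23 to 0.02, Igfbp2 from -0.11 to 0.06, Igfbp4 from -0.13 to 0.04, and Igfbp5 from -0.02 to 0.04 (1370960_at), -0.06 to 0.01 (1387347_at) and -0.08 to 0.11 (1387348_at). With the liver score as a covariate Igfbp2 stood at 0.08, Igfbp4 at 0.13 and Igfbp5 at 0.05, and without the 2 arrays with the highest Alb at 0.04, 0.03 and 0.05, with 1387348_at of Igfbp5 at 0.11. Igfbp5 also turned to 0.0013 with arrays shifted to a common median, 0.02 with array weights, 0.0043 with the Gapdh ratio and, at 1387348_at, 0.00049 with a pseudocount of 1. The cause of these turns was not tested.

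The count of all called probe sets, 1 in the fit as reported, was 2 after the shift to a common median, 5 without a filter, 4 with array weights and 0 without the intensity trend, with the liver score, without the 2 arrays with the highest Alb and in the exact test, and ran from 0 to 4 with single arrays left out. The stroma score moved the median of the protease list to -0.08 and of the FOXO list to -0.14, and the stricter filter at the 60th percentile, with fewer genes, moved that of the IGFBP-type domain list to -0.05. Among the list genes named by rule for their smallest p, 0 turned sign. With the stroma score, however, Txnip stood at -0.14, Ccn1 at -1.11 and Ins1 at 0.003. The other named list genes, such as Igf2, Igfbp7 and Pck1, were not followed through these settings. No paired analysis was possible because the labels used here name no litter or batch that would pair samples across the groups.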
